A study of Rattus norvegicus with 18 samples.

Results

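A group of 7 secreted or cytosolic defence proteins known from airway lining and from neutrophils were followed in the colon of azoxymethane-treated rats. Their genes are Scgb1a1, Sftpd, Wfdc2, Slpi, S100a8, S100a9 and Lcn2. Each had 1 probe set mapped to its symbol alone, so they were 7 of the 14218 genes named on the array, by 7 of 20826 such probe sets. They were picked with distal against proximal results of these arrays in view. Their difference between the regions is therefore given as a description, with no test, and tests are kept for variation between rats and for genes outside the group. The lists of outside genes were also chosen with earlier results of these data known, so their shares and p-values carry that limit.

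Secretory epithelia coat their surface with small proteins that bind microbes, withhold iron from them or restrain host proteases. The group spans both sources of such proteins. The secretoglobin Scgb1a1 is the main secreted product of airway club cells, and the collectin Sftpd (surfactant protein D) binds sugars on microbes in lung fluid and is also made in other mucosae. Wfdc2 and Slpi carry whey acidic protein domains, and Slpi inhibits neutrophil elastase and cathepsin G. S100a8 and S100a9 form calprotectin, a metal-binding heterodimer that fills the neutrophil cytosol, and Lcn2 is a lipocalin that captures bacterial siderophores. Faecal calprotectin and lipocalin 2 are in common use as readouts of gut inflammation.

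The data were 18 Affymetrix rat arrays of scraped colonic mucosa from 9 male Sprague Dawley rats (numbered 1 to 8 and 10), with a proximal and a distal array for every rat. Feeding was on modified AIN-93G for 10 days in every rat. Azoxymethane, a colon carcinogen, was then injected under the skin at 15 mg per kg, and tissue was taken 6 h later. A stretch of 4 cm was scraped at each site. The labels give no age, and no untreated rat was analysed here, so both groups carry the treatment. The series divides its rats into 2 allocation groups, and the labels used here do not tie a rat to either. Values below are log2(signal + 16) after quantile normalization, called log2 signal. A fold on this scale understates the change of a dim gene. Levels of different probe sets are not compared, since probes differ in brightness. In a scraping, fewer cells of a type and less RNA per cell cannot be told apart.

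A few arrays stood apart. A score of 11 smooth muscle genes (the mean of their log2 signals) was 12.17 in the proximal array of rat 3, against 6.94 to 8.74 in the other proximal arrays, and 9.96 and 9.87 in the distal arrays of rats 3 and 7. The score of 11 colon epithelium genes, among them Epcam and Cdh1, was high in every array, from 12.38 to 12.66 in proximal and from 12.07 to 12.26 in distal colon. The lowest proximal value was that of rat 3. Among all 11407 genes tested with limma, 30.8% passed an adjusted p of 0.05, 16.2% as higher in distal and 14.5% as higher in proximal colon, so distal calls made up 52.8% of the total. With the deposited scaling kept in place of quantile normalization, distal calls made up 22.5% and the median of all genes moved from 0.01 to -0.10.

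Windows of 250 bases before a RefSeq transcript start (build GRCr8) were at hand for 4 of the 7 genes. Those of Scgb1a1, Lcn2 and S100a9 are shown, 5′ to 3′ on the gene's strand, to set a club cell gene beside neutrophil-type genes that went in opposite directions. The Scgb1a1 and S100a9 windows end at the start of the annotated gene. The Lcn2 window ran 71 bases into the annotated gene, whose span starts farther upstream, and only the 179 bases outside it are printed. All 250 bases of the Wfdc2 window lay inside the annotated gene, so it is not printed or described as a promoter. Capitals mark words of 4 motifs searched on both strands: the Foxa words TATTTAC and also TATTTGC, as well as TGTTTAC and also TGTTTGC, an NF-kappaB word (GGGA followed by any 4 bases and then CC), a C/EBP word (TTGCNNAA) and a TATA box (TATAAA).
Scgb1a1, chr1:215409687-215409936, minus strand: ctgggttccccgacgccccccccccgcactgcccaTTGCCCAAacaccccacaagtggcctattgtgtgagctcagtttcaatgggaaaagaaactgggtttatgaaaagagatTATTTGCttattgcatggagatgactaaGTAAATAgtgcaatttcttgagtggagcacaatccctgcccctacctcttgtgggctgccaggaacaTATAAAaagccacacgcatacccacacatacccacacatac
Lcn2, chr3:36081852-36082030, minus strand: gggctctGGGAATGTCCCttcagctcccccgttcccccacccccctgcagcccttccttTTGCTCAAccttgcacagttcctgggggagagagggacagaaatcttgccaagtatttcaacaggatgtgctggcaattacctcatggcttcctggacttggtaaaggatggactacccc
S100a9, chr2:178490623-178490872, minus strand: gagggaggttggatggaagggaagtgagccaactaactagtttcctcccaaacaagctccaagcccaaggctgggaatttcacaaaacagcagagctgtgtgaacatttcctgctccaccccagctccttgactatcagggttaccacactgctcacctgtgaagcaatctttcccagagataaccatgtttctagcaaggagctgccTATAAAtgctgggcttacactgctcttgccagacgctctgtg

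The Scgb1a1 promoter held 2 Foxa words, TATTTGC at 136 to 130 bases before the transcript start and GTAAATA, read on the other strand, at 108 to 102. It also held the C/EBP word TTGCCCAA and a TATAAA. In the Lcn2 promoter the NF-kappaB word matched on both strands at overlapping positions, GGGAATGTCC and GGAATGTCCC, and the C/EBP word was TTGCTCAA. That of S100a9 held TATAAA only. For scale, the Foxa words were found in 12.2% of 33469 promoters of the same length, the NF-kappaB word in 16.4%, the C/EBP word in 9.22% and TATAAA in 12.9%. These are matches of letters, not sites shown to be bound.

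Of the 7 genes, 6 had a higher mean in distal colon and Lcn2 a higher mean in proximal colon. In 5 of them (Scgb1a1, Sftpd, Wfdc2, S100a8 and S100a9) the distal array was the higher in all 9 rats, a pattern that 11.4% of all genes tested showed in the distal and 10.2% in the proximal direction. Only Scgb1a1, Sftpd and Wfdc2 had groups that did not overlap, against 3.22% of all genes toward distal and 3.67% toward proximal colon. These counts follow from how the genes were chosen.

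**Figure D1:**
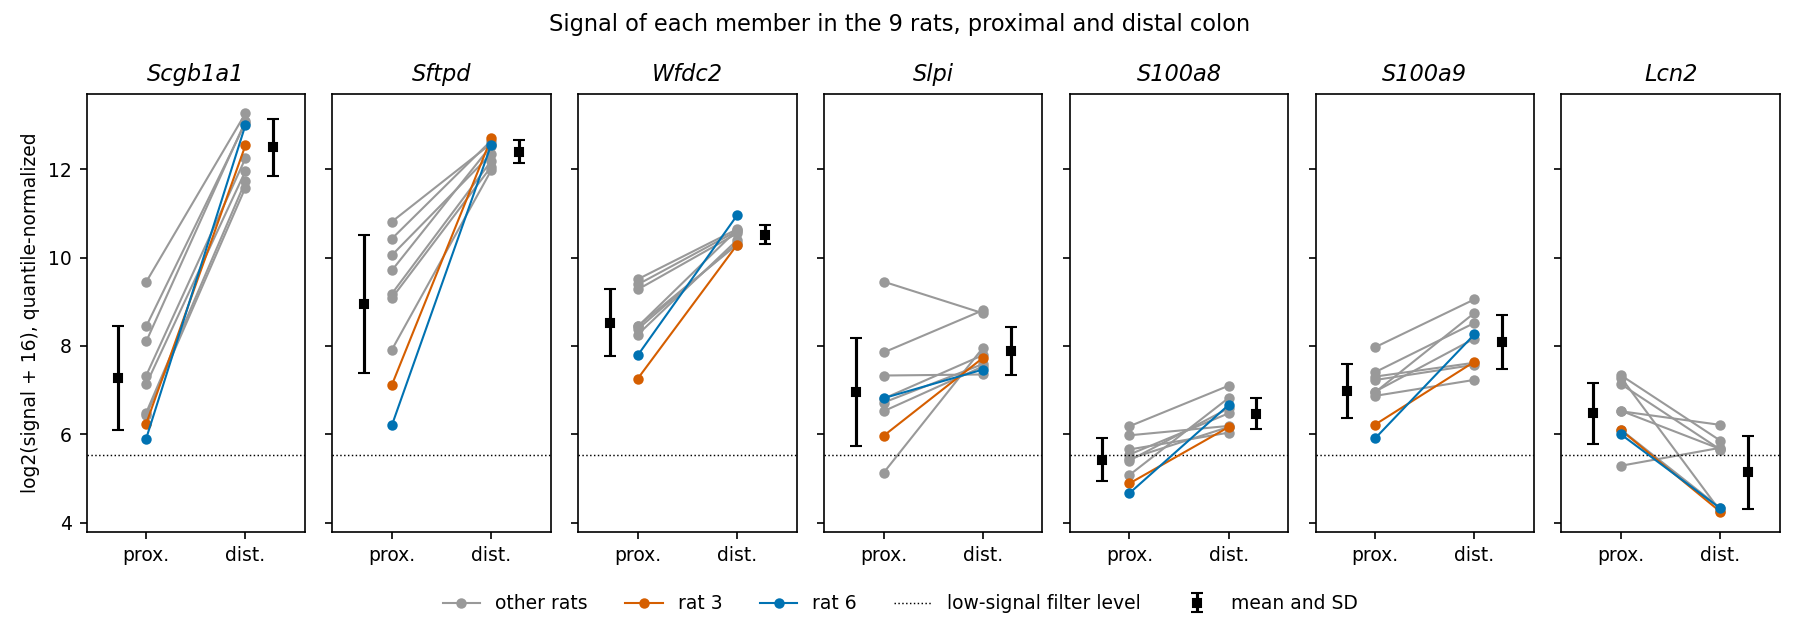
Log2 signal (vertical axis, log2(signal + 16), quantile normalized) of each of the 7 genes by rat and region (9 rats), with a line joining the arrays of a rat. The lines of Scgb1a1, Sftpd and Wfdc2 all run upward to distal colon without overlap, those of Lcn2 run downward in 8 of 9 rats, and those of Slpi run upward in 8 of 9.

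Scgb1a1 had the widest gap between the regions. Its proximal log2 signal ran from 5.91 through a median of 7.13 to 9.45, and its distal signal from 11.58 through 12.54 to 13.26. The deposited intensities behind these were 53.2 to 656.9 (median 137.6) in proximal and 3289 to 8954 (median 4790) in distal colon. Every distal array thus lay above every proximal array. The means were 7.28 ± 1.18 (SD, n = 9) and 12.49 ± 0.64 (SD, n = 9), a within-rat difference of 5.21 ± 0.32 (SE) or 37.0-fold, which ranked 1 of 11407 genes toward distal colon. Rat 6 had the largest difference, 7.09, and rat 10 the smallest, 3.81.

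Sftpd was high in distal colon and varied far less there than in proximal colon. Proximal values ran from 6.21 through 9.19 to 10.81, while the 9 distal values lay between 11.97 and 12.69 (median 12.53). The SD was 1.56 in proximal and 0.27 in distal colon, a ratio of 5.82. No proximal array reached the lowest distal array. The mean difference was 3.45 ± 0.52 (SE, n = 9), 10.9-fold, with single rats from 1.77 (rat 10) to 6.34 (rat 6). Without the proximal arrays of rats 3 and 6, which held its 2 lowest values, the difference was 2.80.

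Wfdc2, which encodes a secreted protein with paired whey acidic protein domains (also known as HE4), had the same shape on a smaller scale. It ran from 7.26 through 8.44 to 9.51 in proximal and from 10.28 through 10.54 to 10.95 in distal colon. Its lowest distal array was above its highest proximal one. Means were 8.53 ± 0.75 and 10.52 ± 0.22 (SD, n = 9 each), and the difference was 1.99 ± 0.25 (SE), 3.97-fold. Rats 3 and 6 again had the largest differences, 3.02 and 3.16.

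Slpi, the secreted inhibitor of neutrophil serine proteases, overlapped between the regions. Proximal values ran from 5.13 in rat 5 through 6.81 to 9.45 in rat 7, and distal values from 7.35 through 7.73 to 8.81. The highest of all 18 arrays was the proximal array of rat 7, so no distal array lay above the proximal range. The difference was 0.93 ± 0.33 (SE, n = 9), 1.90-fold, and was positive in 8 of 9 rats. It was close to 0 in rat 1 (0.02) and turned in rat 7 (-0.71).

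S100a8, the smaller calprotectin subunit, was dim. It ran from 4.67 through 5.45 to 6.18 in proximal and from 6.04 through 6.48 to 7.10 in distal colon, where 6 of 9 arrays exceeded the highest proximal one. Its proximal mean of 5.43 lay below the low-signal limit of 5.54, so it passed that filter through its distal arrays. The difference was 1.04 ± 0.19 (SE, n = 9), 2.06-fold.

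S100a9, the partner subunit, ran from 5.91 through 6.97 to 7.97 in proximal and from 7.23 through 8.17 to 9.05 in distal colon. In 5 rats the distal array was above the proximal range. The difference was 1.11 ± 0.23 (SE, n = 9), 2.16-fold, and it was largest in rat 6 (2.35), as for S100a8 (2.00). The smallest differences were those of rat 4 for S100a9 (0.31) and rat 10 for S100a8 (0.21).

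Lcn2 went the other way. Its proximal values ran from 5.29 through 6.52 to 7.33 and its distal values from 4.25 through 5.66 to 6.21. The difference, distal minus proximal, was -1.34 ± 0.33 (SE, n = 9), 2.52-fold. It was negative in 8 of 9 rats, and rat 4 had the reverse (0.41). The distal arrays formed 2 clusters, with rats 1, 2, 3 and 6 between 4.25 and 4.34 and the other 5 between 5.66 and 6.21. Its distal mean, 5.14, was below the low-signal limit. Deposited distal intensities reached down to 2.91, where the pseudocount of 16 sets most of the value. With a pseudocount of 1 the difference was -2.21.

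The direction of all 7 differences was the same in each of 18 other settings. Those of scaling, pseudocount and samples could move a difference, while those of filter, probe set rule and block could not by construction. Variation between rats was wide in proximal colon. The proximal SD exceeded the distal SD in 6 of the 7 genes, with Lcn2 the exception, against 56.8% of all genes tested. For S100a9 the SDs were close to equal, 0.619 and 0.613. Distal SDs of Lcn2, Scgb1a1, S100a9 and Slpi were wide as well, larger than in 97.2%, 94.6%, 94.0% and 91.8% of all genes. For S100a8, Sftpd and Wfdc2 these shares were 81.9%, 67.6% and 54.3%. The proximal arrays of rats 3 and 6 held the 2 lowest values of Scgb1a1, Sftpd, Wfdc2, S100a8 and S100a9. Rat 3 is the array of the high smooth muscle score. Rat 6 had a smooth muscle score of 7.45 and an epithelium score of 12.58, both within the range of the other proximal arrays. Rats 3 and 6 had the highest proximal macrophage scores, 9.51 and 8.96, against 7.77 to 8.83 in the other 7. They also had the lowest proximal scores of 5 airway and lung genes, 5.42 and 5.74, and rat 6 had the lowest goblet cell score, 11.99. Their proximal signals of the neutrophil gene Padi4 were the lowest too, 6.67 and 7.27. Their scores of 7 neutrophil genes, Padi4 among them, were 6.45 and 6.81. These lay within the range of the other proximal arrays, 6.06 to 7.05. The part of these scores in the members' levels was not tested.

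Calprotectin's subunits varied together from rat to rat. Across the 9 distal arrays S100a8 and S100a9 had a Pearson r of 0.980 (exact permutation p = 4.96e-05, adjusted p = 0.00208 over the 42 pairs of both regions). Spearman's rho was 0.917 (exact permutation p = 0.00131, adjusted p = 0.0275). With the 2 rats most distant from the S100a8 median left out, r was 0.969. In 15 other settings r stayed between 0.973 and 0.990, with adjusted p from 0.000694 to 0.0188. Rat 8 was the highest distal array for both genes and rat 1 the lowest.

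**Figure D2:**
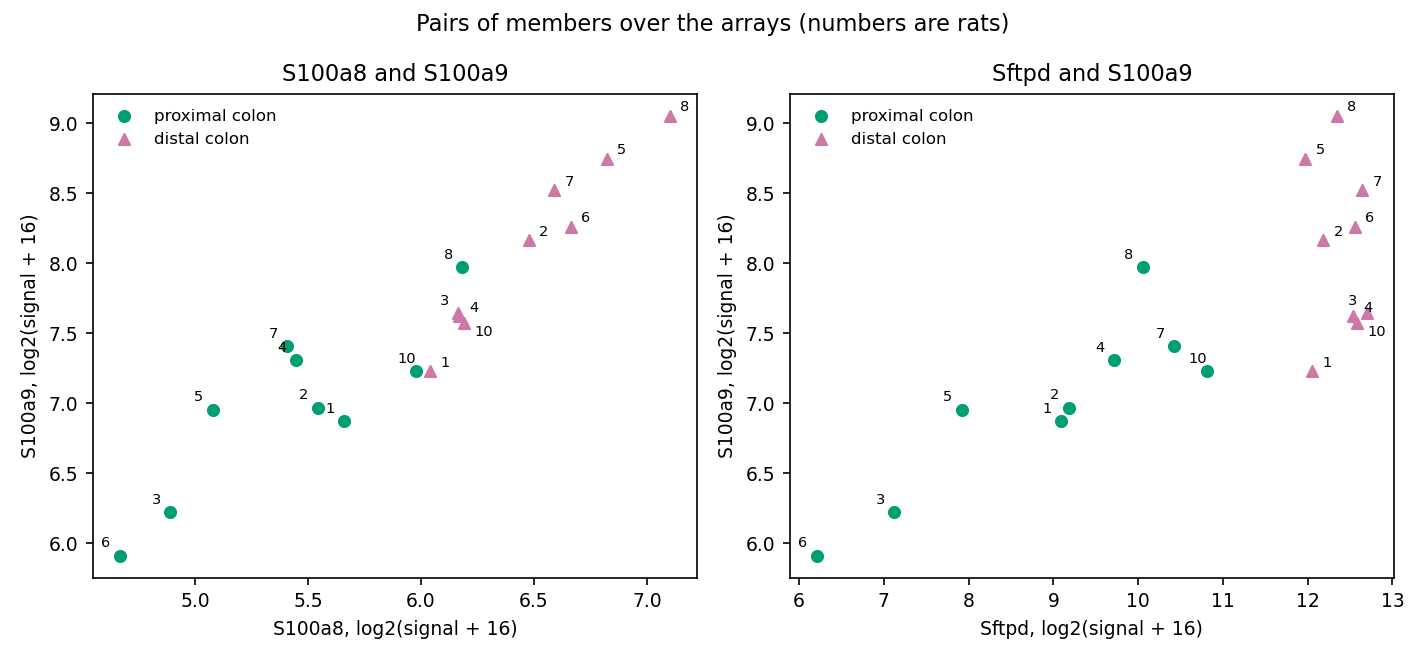
Log2 signal of S100a9 (vertical axis) against S100a8 (left) and against Sftpd (right) in the 9 proximal and 9 distal arrays, numbered by rat, in log2(signal + 16). S100a8 and S100a9 rise together in both regions, while Sftpd and S100a9 rise together in proximal arrays (r = 0.876) and not in distal arrays (r = -0.160).

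In proximal colon the pairs that passed included Sftpd with S100a9 and with S100a8, across the airway and neutrophil types. No proximal pair passed in every other setting. All 21 pairs had a positive r (median 0.577, from 0.00452 to 0.876), and 4 passed after adjustment, with 9 at an unadjusted p below 0.05. The share of positive r over all gene pairs was not computed. Sftpd with S100a9 had r = 0.876 (exact permutation p = 0.00173, adjusted p = 0.0340) and rho = 0.867 (exact permutation p = 0.00451, adjusted p = 0.0473). Sftpd with S100a8 had r = 0.870 (exact permutation p = 0.00243, adjusted p = 0.0340) and rho = 0.733 (exact permutation p = 0.0311, adjusted p = 0.218). S100a8 with S100a9 had r = 0.858 (exact permutation, adjusted p = 0.0398) and rho = 0.650 (exact permutation, adjusted p = 0.280). Scgb1a1 with Sftpd had r = 0.843 (exact permutation, adjusted p = 0.0398) and rho = 0.933 (exact permutation, adjusted p = 0.0275). Proximal S100a8 signals (4.67 to 6.18) lay around the low-signal limit of 5.54, which limits the pairs that hold it. Without rats 3 and 6, r was negative for Scgb1a1 with Wfdc2 (-0.219), Scgb1a1 with Lcn2 (-0.272) and Sftpd with Lcn2 (-0.235). All other proximal pairs kept a positive r.

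The pairs with a calprotectin gene were weaker without rats 3 and 6. Leaving out these rats, the most distant from the Sftpd median, gave r of 0.568 for Sftpd with S100a9 and 0.659 with S100a8. Scgb1a1 with Sftpd kept r = 0.800 over the same 7 rats. The same step for the first gene of the other pairs gave 0.613 for S100a8 with S100a9 and 0.826 for Scgb1a1 with Sftpd. With rats 3 and 6 left out and the rest renormalized, no proximal pair passed (exact permutation, adjusted p from 0.319 to 0.601 for these 4). All 4 pairs were also lost without rat 2, 3, 4, 5 or 6 alone, 3 of them without rat 10 and 2 without rat 8. Their r stayed at 0.777 or above in each of these, with adjusted p up to 0.152. Without the 3 arrays of highest smooth muscle score, all 4 missed the threshold as well, with r from 0.822 to 0.845 and adjusted p from 0.0917 to 0.111.

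Distal arrays gave fewer such relations. Lcn2 was left out there because its values fall into separate clusters. Of the remaining 15 pairs, S100a8 with S100a9 was the 1 that passed, 3 had an unadjusted p below 0.05, and 12 had a positive r (median 0.163). Those with an unadjusted p below 0.05 besides calprotectin were Slpi with S100a9 (r = 0.731, exact permutation p = 0.0222, adjusted p = 0.107; rho = 0.667, adjusted p = 0.280) and Scgb1a1 with Sftpd (r = 0.712, exact permutation p = 0.0382, adjusted p = 0.146; rho = 0.533, adjusted p = 0.387). Slpi with S100a9 passed with the deposited scaling kept (r = 0.832, adjusted p = 0.0456). Whether correlations differed between the regions was not tested.

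**Figure D3:**
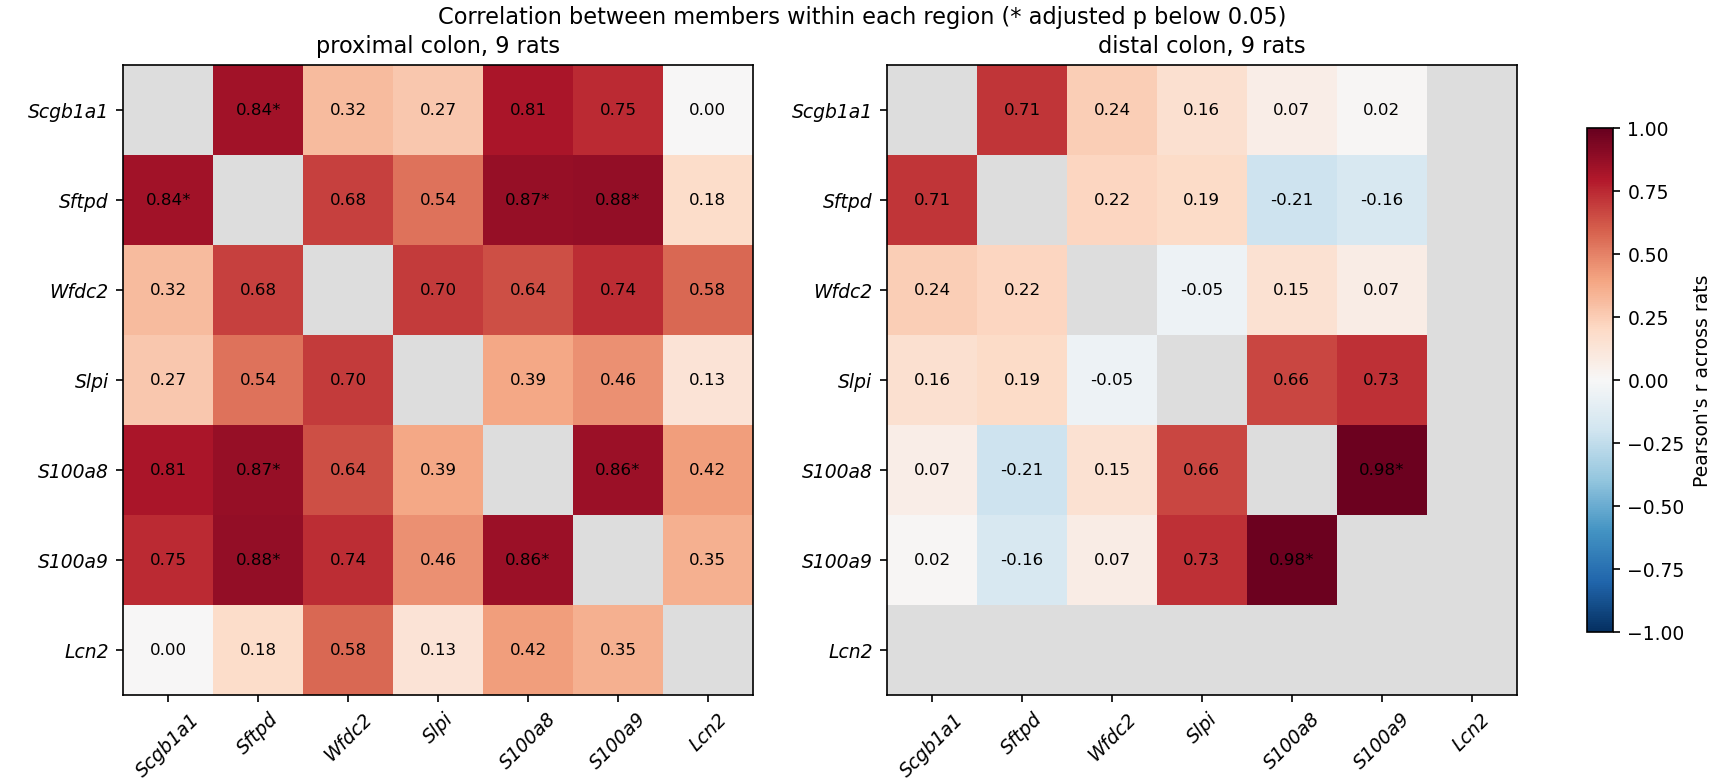
Pearson's r between each pair of the 7 genes over the 9 rats, in proximal (left) and distal colon (right), on a colour scale from -1 to 1, with stars at an adjusted p below 0.05. Lcn2 is left grey in distal colon because its values there form 2 clusters. Proximal values are all positive and reach 0.876, and the distal panel has a single star, at S100a8 with S100a9 (0.98).

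Proximal levels were next set against distal levels of the same rats. Over 6 genes (Lcn2 left out) 0 passed and 0 had an unadjusted p below 0.05, by exact permutation of Pearson's r. Scgb1a1 had r = 0.583 (adjusted p = 0.350, exact permutation) and Sftpd r = 0.0360 (adjusted p = 0.925, exact permutation). The values depended on which rats were kept. Without the 2 rats most distant from the proximal median of each gene, r was 0.211 for Scgb1a1 and 0.899 for Sftpd. With rats 3 and 6 left out and the rest renormalized, Scgb1a1 had r = 0.954 (exact permutation, adjusted p = 0.00417) and Sftpd r = 0.899 (exact permutation, adjusted p = 0.0160). These 2 rats hold the lowest proximal values of both genes, so leaving them out depends on the values tested. The p-values of that setting are therefore descriptive.

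Genes most like each member were ranked by the correlation of log2 signal, centred on its region mean, over the 18 arrays and 11296 named genes. This is a description with no test, and the arrays share the depth and tissue makeup that move many genes at once. For S100a8 the nearest gene was S100a9, and for S100a9 it was S100a8 (r = 0.899). S100a8 was followed by Tpm4 (0.809), Phlda2 (0.803) and Nudcd2 (0.792), and S100a9 by Ccng1 (0.849), Riox2 (0.841) and Bola3 (0.832). Ccng1 encodes cyclin G1, a known p53 target. Sftpd was nearest to B3gnt7 (0.938), Fxyd4 (0.935), Hoxb13 (0.924), a homeobox gene of the posterior gut, and Midn (0.920). Its likeness to B3gnt7 and Hoxb13 came from proximal arrays, where r was 0.966 and 0.945, against -0.0188 and -0.277 in distal arrays.

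The other members had no member among their 4 nearest genes. Scgb1a1 was nearest to Mlf2 (0.865), Orai1 (0.847), Atrip (0.811) and Cdc34 (0.789), with Sftpd in place 5 (0.787). Wfdc2 was nearest to Vill (0.861), Sidt1 (0.858), Alox5ap (0.855) and Mfsd4a (0.847). Slpi was nearest to Ebna1bp2 (0.842), Gsto2 (0.825), Exosc10 (0.824) and Pus3 (0.819). Lcn2 had the weakest likeness, to Limd1 (0.786), Nsmaf (0.781), Sdad1 (0.724) and Osgepl1 (0.709).

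Neutrophil genes outside the group gave little signal. Of 31 listed, 17 had a named probe set, 10 of these were below the low-signal limit and 7 were tested. Padi4, a histone citrullinating enzyme of granulocytes, rose from 7.64 ± 0.45 to 9.19 ± 0.21 (SD, n = 9 each) in distal colon, 2.92-fold, in 9 of 9 rats (limma adjusted p = 4.05e-07). It was the 1 gene of 7 that passed (14.3%, against 16.2% of all genes toward distal colon). Toward proximal colon 0 passed by limma (0 at an unadjusted p below 0.05). The median difference of the 7 was 0.19, against 0.01 over all genes. Among 9 defining markers, Padi4 was the only one tested. Csf3r, Cxcr2, Mmp8 and Camp were below the limit, with mean log2 signals from 4.51 to 5.12 and differences from -0.14 to 0.07, and Mpo, Elane, Ngp and Cd177 were unnamed here.

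The neutrophil score, the mean of the 7, ran from 6.06 to 7.05 in proximal and from 6.49 to 7.51 in distal arrays and was higher in distal colon in 7 of 9 rats. Its mean difference was 0.34. Padi4 had the largest difference of the 7, 1.54, and the 6 genes that did not pass ran from -0.14 to 0.54. Of the 9 defining markers the score held Padi4 alone, so it is a weak measure of neutrophils. No relation of this score with a member passed after adjustment, which does not show that neutrophils had no relation with the members. In proximal colon r lay between -0.223 and 0.227 over 7 genes, and 0 had an unadjusted p below 0.05 by exact permutation. In distal colon Lcn2 was set aside because its values fall into separate clusters. Its r was 0.618 (exact permutation p = 0.0794, adjusted p = 0.556), the highest positive value there. Wfdc2 had r = -0.740 (exact permutation p = 0.0216, adjusted p = 0.302), and the other 5 genes had no unadjusted p below 0.05. For S100a8 and S100a9 in distal colon r was 0.0280 and 0.0867. The part of neutrophils in the members' regional difference was not tested.

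Other genes of an airway list were mostly dim. The list held 12 genes, for club and ciliated cells but also for alveolar lung cells, such as Sftpc and Ager. Of these, 5 were tested and 1 passed (20%, against 16.2% of all genes toward distal colon). That gene was Cyp2f4, a cytochrome P450 of the lung. It rose from 5.33 ± 0.34 to 7.90 ± 0.41 (SD, n = 9 each), 5.92-fold, in 9 of 9 rats (limma adjusted p = 1.32e-09). Its proximal mean lay below the low-signal limit. No gene passed toward proximal colon by limma (0 at an unadjusted p below 0.05). Scgb3a1, Sftpa1, Sftpb, Cldn18, Lamp3 and the lung transcription factor Nkx2-1 were below the limit, with mean log2 signals from 4.45 to 5.39. The median difference of the 5 tested was 0.26.

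Markers of further cell types were read beside these. Of all genes tested, 16.2% passed toward distal and 14.5% toward proximal colon. Among 8 macrophage genes Cd14 rose in distal colon (1.49-fold, limma adjusted p = 0.000605) and the median difference was -0.30. With the deposited scaling Cd14 no longer passed (adjusted p = 0.105). Of 11 smooth muscle genes, 0 passed by limma in either direction and 0 had an unadjusted p below 0.05. Mylk passed as higher in proximal colon with rat as a block (0.0205) and without rat 3 (limma adjusted p = 0.0468). It also passed without the 3 arrays of highest smooth muscle score (limma adjusted p = 0.00189). Of 8 goblet cell genes, Tff3 rose (1.33-fold) while Spink4 (7.13-fold), Zg16 (3.65-fold) and Muc2 (1.15-fold) were higher in proximal colon. Muc2 did not pass with arrays centred on their medians (limma adjusted p = 0.109). Of 11 colon epithelium genes, 0 passed as higher in distal colon by limma (0 unadjusted) and Car1 (5.63-fold), Cdx2, Cdx1, Krt20 and Vil1 were higher in proximal colon. The part of these cell types in the members' levels was not tested.

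Relatives of the 7 proteins followed, from the secretoglobin, collectin, whey acidic protein, lipocalin, S100 and bactericidal protein families. Of 58 listed, 22 were tested (median difference 0.04). Higher in distal colon were 7 (31.8%) and in proximal colon 1 (4.5%), against 16.2% and 14.5% of all genes. Of the 7, 6 were S100 genes, led by S100a1 (2.59-fold, limma adjusted p = 0.00778), S100g (1.90-fold, adjusted p = 0.00226) and S100a13 (1.77-fold, adjusted p = 5.96e-05). Lbp, the lipopolysaccharide-binding protein, rose 2.39-fold (limma adjusted p = 0.000969). S100a6, whose probe set was the brightest of the list, had 13.36 in proximal and 13.48 in distal colon and did not pass (limma adjusted p = 0.0689). It passed as higher in distal colon in the paired fit, which has rat as a block (0.0383), and without rat 8 (limma adjusted p = 0.0456). Wfdc3, a whey acidic protein gene, was 1.53-fold higher in proximal colon (limma adjusted p = 0.000577). S100a11, S100a14 and S100a16 did not pass with the deposited scaling.

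Receptors and targets of the group were tested for 19 of 26 genes (median difference 0.14). Toward distal colon 4 passed (21.1%) and toward proximal colon 2 (10.5%), against 16.2% and 14.5% of all genes. Tlr4, the lipopolysaccharide receptor that calprotectin also engages, rose from 9.49 ± 0.84 to 10.39 ± 0.29 (SD, n = 9 each), 1.87-fold (limma adjusted p = 0.0166). Cyba, a subunit of the phagocyte and epithelial NADPH oxidases, rose 1.54-fold (limma adjusted p = 0.00154), and Anxa2, an annexin that binds S100 proteins, 1.22-fold (adjusted p = 0.00321). Cd14, whose product hands lipopolysaccharide to Tlr4, rose by the value given above. None of these 4 passed with the deposited scaling (limma adjusted p from 0.0540 to 0.464). Plscr1, a scramblase that binds Slpi, was 1.64-fold higher in proximal colon (limma adjusted p = 4.47e-06). Slc22a17, a receptor for Lcn2, was 1.30-fold higher there (limma adjusted p = 0.0213), and it did not pass without rat 1 (0.0565), without rat 4 (0.0550) or without the proximal arrays of rats 3 and 6 (0.0630). Bsg, the brightest probe set of the list, had 12.65 in proximal and 12.52 in distal colon and did not pass (limma adjusted p = 0.0751). It passed as higher in proximal colon without rat 3 (0.00453), without the 3 arrays of highest smooth muscle score (0.00970) and without the proximal arrays of rats 3 and 6 (limma adjusted p = 0.000973).

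Inducers of these genes were tested for 22 of 33 (median difference 0.07). Higher in distal colon were 3 (13.6%) and in proximal colon 1 (4.5%), against 16.2% and 14.5% of all genes. Nfkbiz, the nuclear inhibitor-family protein needed for Lcn2 induction by interleukins, rose from 9.33 ± 0.21 to 10.13 ± 0.31 (SD, n = 9 each), 1.75-fold (limma adjusted p = 3.68e-05). Nfkb2 rose 1.43-fold (limma adjusted p = 0.000173) and Cebpb, a C/EBP factor, 1.37-fold (adjusted p = 0.0204). Cebpb did not pass with the deposited scaling (0.177), without rat 3 (0.05003) or without the 3 arrays of highest smooth muscle score (0.0953). It also missed the threshold when the proximal arrays of rats 3 and 6 were left out (limma adjusted p = 0.0634). Il1r1, the interleukin 1 receptor, was 1.69-fold higher in proximal colon (limma adjusted p = 6.35e-05). Il6, Il17f, Csf3, Csf2 and the neutrophil chemokines Cxcl1, Cxcl2, Cxcl3 and Cxcl6 were below the low-signal limit, with mean log2 signals from 4.66 to 5.49. Without that filter Cxcl1 passed as higher in distal colon (difference 0.62, limma adjusted p = 0.0475). Myd88 and Nfkbia, the brightest probe sets of the list, did not pass (limma adjusted p = 0.140 and 0.0903). Nfkbia, higher in distal colon in 9 of 9 rats, passed in the paired fit (0.0425), when rat 3 was left out (0.0385) and without the proximal arrays of rats 3 and 6 (limma adjusted p = 0.0431).

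Defence proteins of other families split the other way. Of 30 listed, 23 were tested (median difference -0.23). Toward distal colon 4 passed (17.4%) and toward proximal colon 9 (39.1%), against 16.2% and 14.5% of all genes. Saa3, an acute phase serum amyloid, fell from 12.53 ± 0.30 in proximal to 7.43 ± 0.24 in distal colon (SD, n = 9 each), 34.3-fold (limma adjusted p = 6.96e-17). The antibacterial lectins Reg3g (19.1-fold, limma adjusted p = 5.40e-06) and Reg3b (15.6-fold, adjusted p = 4.66e-06) and the scavenger protein Dmbt1 (a log2 difference of -3.81, adjusted p = 8.25e-08) were also higher in proximal colon. The distal mean of Reg3b, 4.74, was below the low-signal limit, so its fold is set against a dim probe set. Anxa1, an annexin of resolving inflammation, rose 3.90-fold in distal colon (limma adjusted p = 1.39e-06), and Lpo, Tff3 and Rnase4 rose 1.43-, 1.33- and 1.20-fold. Those last 3 did not pass with the deposited scaling. Lypd8 and Pigr, the brightest probe sets of the list, did not pass (limma adjusted p = 0.174 and 0.600).

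**Figure D4:**
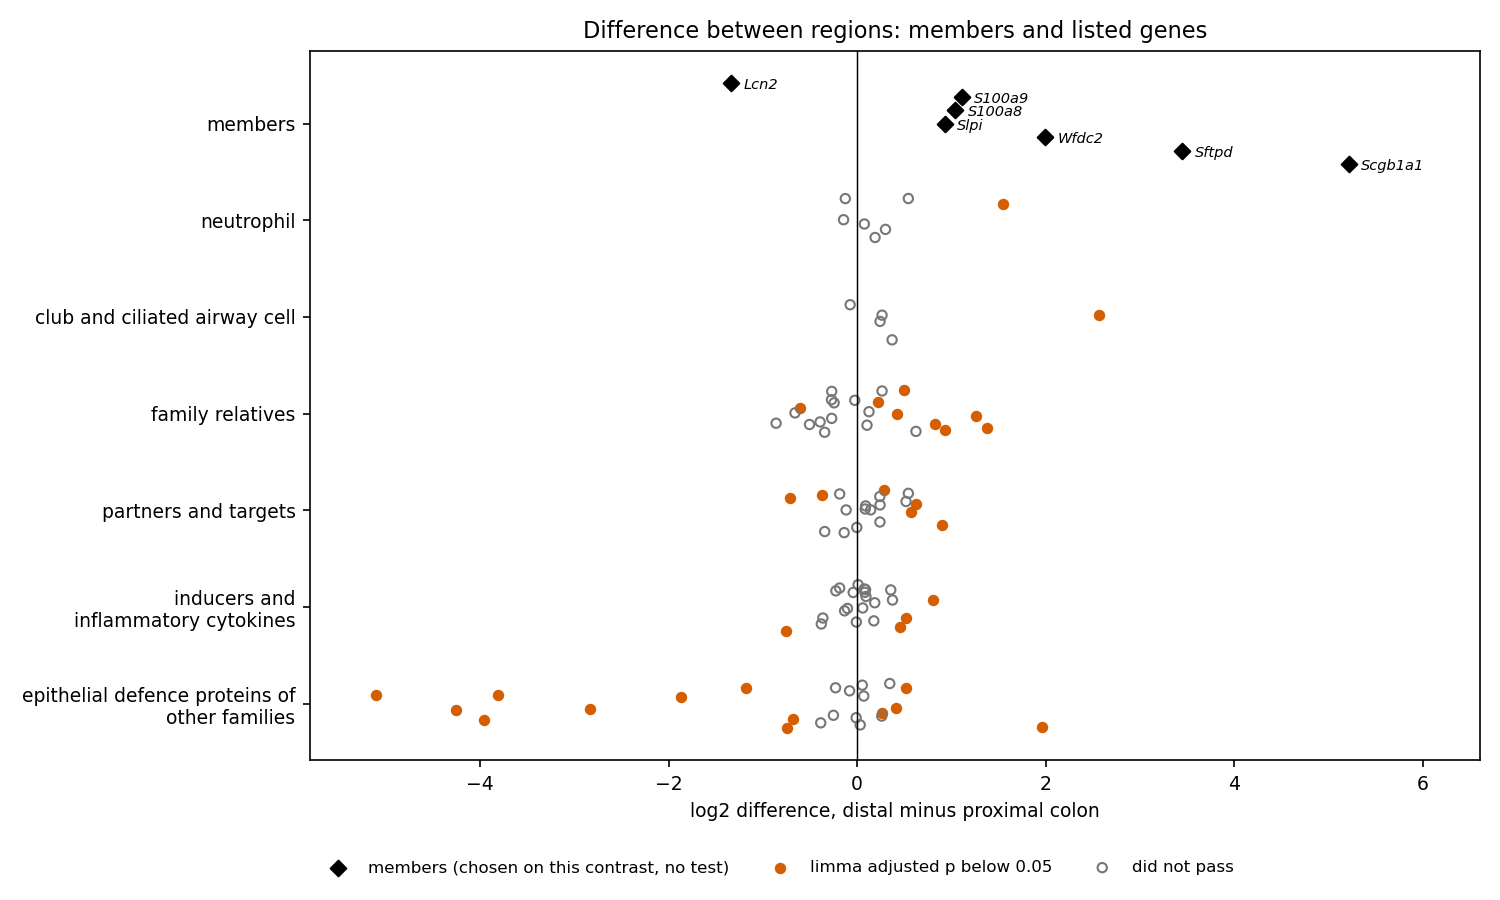
Difference in log2 signal, distal minus proximal colon (horizontal axis), of the 7 genes (diamonds, chosen on this contrast and not tested) and of the tested genes of 6 lists, filled where the limma adjusted p was below 0.05. Scgb1a1 lies farthest to the right at 5.21 and Saa3 farthest to the left at -5.10, and most genes of the neutrophil and airway lists lie near 0.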

How the data were processed

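Linear signal intensities of probe sets were deposited; the submitters' processing notes name MAS5 for them. Its version and any scaling target: not given in the sources used here. Trimmed means (2% at each end) ran from 211.2 to 342.4 over the 18 arrays. Therefore log2(intensity + 16) was computed for the 31042 of 31099 probe sets that are not controls and quantile normalized (limma 3.58.1, R 4.3.3), which removes any overall shift between regions. The lowest 30% by mean (below 5.54) were left out and 21729 tested. Symbols came from the platform annotation, which can be old: 20826 probe sets had 1 symbol, 436 several (not used) and 9780 none here. RefSeq (GRCr8) held 20758 of the 20826 and changed 0. A gene is its tested probe set with the highest mean. The number of arrays limits the precision.

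Distal minus proximal was tested with limma (lmFit, eBayes with trend, no block, Benjamini-Hochberg over all probe sets tested, two-sided). Correlations across rats used exact two-sided permutation of pairings, adjusted over 42 member pairs, 14 neutrophil score relations and 7 proximal with distal relations, in Python 3.11.15. Rat numbers pair the arrays, since the labels tie both to the same animal. Deviations from the region means correlated within rats with r from -0.073 to 0.596 (median 0.236), against a median of -0.0193 between rats. The array of the same rat was the best match in only 4 of 9 rats, and its r was above 0.1 in 6. The pairing thus rests on the labels.

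The 7 genes, the lists and the tests were chosen with earlier results of these data known. Named are all members, up to 4 called genes of each list with the largest differences, up to 2 with the brightest probe sets, all called genes where a count is 5 or fewer, and the 4 genes most like each member. Other genes named, such as those below the low-signal limit, were chosen after their values were seen. Alternatives changed the scaling, pseudocount, filter, probe set rule, block and samples.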

Additional observations from a re-analysis of the deposited data

How the results depend on the processing

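All 7 members kept their direction in each of the 18 alternatives. Those of filter, probe set rule and block could not change a member's difference. Lcn2 moved most, to -2.21 with a pseudocount of 1. With the deposited scaling kept, 451 genes were called higher in distal colon in place of 1853. Distal calls were then 0 for macrophage genes, 0 for goblet cell genes, 4 for family relatives, 0 for partners and 1 for other defence proteins, proximal calls were 3 for family relatives and 2 for inducers, and 2 distal pairs of members passed. Without the low-signal filter 2 genes of the airway list were called distal, 2 relatives proximal and Cxcl1 distal. With the lowest 50% left out 0 genes of that list were called distal, since Cyp2f4 was then not tested. With rat as a replicate block (the paired fit), 4199 genes were called in place of 3510. That fit gave proximal calls of 1 macrophage gene, 1 smooth muscle gene, 4 relatives and 3 inducers, and distal calls of 1 epithelium gene and 6 inducers. It ended no call of a named gene, and S100a6, Nfkbia and Mylk passed in it. Leaving out each rat in turn gave 0 to 5 proximal member pairs past the threshold, and proximal calls of 1 to 3 partners, 0 to 1 smooth muscle genes, 1 to 2 inducers and 1 to 2 relatives, with 0 to 1 distal calls of epithelium genes. Without the proximal arrays of rats 3 and 6, 0 proximal pairs and 2 proximal with distal relations passed, the latter with descriptive p-values only. Without the 3 arrays of highest smooth muscle score, proximal calls were 2 macrophage genes, 1 smooth muscle gene, 2 relatives and 2 inducers, and 0 proximal pairs passed. The cause of these shifts was not tested. The sign of a called listed gene never turned. Signal near background limits S100a8, Lcn2, Cyp2f4 and Reg3b, whose lower group mean lay below the filter, and most neutrophil and airway markers. With 9 rats, a relation that missed the threshold is not shown to be absent. In 14 groups of 9 arrays (7 genes in 2 regions), 0 had an end value past Dixon's 95% limit of 0.493. That check takes a single end value against its neighbour. It can therefore miss 2 low arrays together, such as those of rats 3 and 6, or the 2 distal clusters of Lcn2.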
